A study of Mus musculus with 2 samples.

Results

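The genes described here are 10 that mark the osteoclast program, *Nfatc1*, *Tnfrsf11a*, *Oscar*, *Calcr*, *Dcstamp*, *Ocstamp*, *Acp5*, *Ctsk*, *Mmp9* and *Atp6v0d2*. They were chosen by name, and every probe of each gene was read on both arrays of the series. All 10 were found, through 13 probes, among 20655 genes that could be named on the array. The arrays measured total RNA of RAW264.7, an established macrophage cell line from an ascites tumor that Abelson murine leukemia virus induced in an adult male BALB/c mouse. One culture received vehicle control and the other received IR-61, a near-infrared heptamethine cyanine dye that locates to mitochondria, at 10 μM, both for 24 h. Both cultures grew in DMEM with fetal bovine serum, and no osteoclast-inducing ligand is named for either. With 1 culture and 1 array per condition, no test between the conditions was possible.

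Osteoclasts are the multinucleated cells that dissolve bone, and they form by fusion of precursors of the macrophage lineage. The ligand RANKL binds its receptor RANK on these precursors, and M-CSF keeps them alive through its own receptor. Together with costimulatory receptors that signal through ITAM adaptors, RANK raises NFATc1, the transcription factor that switches on fusion proteins, acid pumps and bone-degrading enzymes. RAW264.7 cells are widely used as osteoclast precursors, because RANKL turns them into osteoclast-like cells.

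Promoter sequences of *Acp5*, *Ctsk* and *Oscar* are shown because these genes are classical targets of NFATc1 and of the myeloid factor PU.1, so that their signals can be read beside those of *Nfatc1* and of *Spi1*, the gene of PU.1. Each line gives the 250 bases before the outermost annotated start, 5′ to 3′ on the strand of the gene, from RefSeq on GRCm38.p6. Capitals mark the NFAT core GGAAA and the PU.1 core GAGGAA, read on both strands.
Acp5, chr9:22135747-22135996, minus strand: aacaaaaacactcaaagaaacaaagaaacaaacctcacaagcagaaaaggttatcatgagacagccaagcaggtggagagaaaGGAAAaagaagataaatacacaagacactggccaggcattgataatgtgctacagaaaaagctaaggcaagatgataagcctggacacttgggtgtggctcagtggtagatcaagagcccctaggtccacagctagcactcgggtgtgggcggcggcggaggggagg
Ctsk, chr3:95498960-95499209, plus strand: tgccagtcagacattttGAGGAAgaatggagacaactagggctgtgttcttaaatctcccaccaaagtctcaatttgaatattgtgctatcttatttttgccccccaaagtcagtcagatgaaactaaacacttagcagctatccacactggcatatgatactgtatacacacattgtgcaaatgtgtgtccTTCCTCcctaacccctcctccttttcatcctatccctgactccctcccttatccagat
Oscar, chr7:3616158-3616407, minus strand: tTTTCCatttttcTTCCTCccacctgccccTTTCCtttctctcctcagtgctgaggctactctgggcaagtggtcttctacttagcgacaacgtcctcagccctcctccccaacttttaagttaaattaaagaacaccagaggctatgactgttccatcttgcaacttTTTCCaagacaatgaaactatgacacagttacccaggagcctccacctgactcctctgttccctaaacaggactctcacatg

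The window of *Acp5* held 1 NFAT core and no PU.1 core. That of *Ctsk* held 2 PU.1 cores and no NFAT core, and that of *Oscar* held 3 NFAT cores and 1 PU.1 core. No PU.1 core overlapped an NFAT core in these windows. Among 32851 promoter windows of the same length, 55.6% held the NFAT core and 23.3% the PU.1 core, so both are common. The AP-1 motif TGANTCA, found in 6.75% of all windows, was in none of the 3. The E-boxes CATGTG and CACGTG, which MITF can bind, were in 17.6% of all windows, and *Oscar* held 1. The 2 inner starts of *Acp5* had 1 and 2 NFAT cores, and the one with 2 also held 1 of these E-boxes. Of the other members *Tnfrsf11a* and *Calcr* had windows in the table, and *Nfatc1*, *Dcstamp*, *Ocstamp*, *Mmp9* and *Atp6v0d2* did not. The matches describe letters only.

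Of the 10 genes 9 were read well above background on both arrays, and none of them differed by 2-fold or more between IR-61 and vehicle. The limit of 1.5-fold was not passed by any of the 9 either, by their brightest probes, while the dimmer probe of *Nfatc1* was 1.74-fold lower. At 1.5-fold 959 of the 16870 genes measured on both arrays were lower and 1652 higher, so most genes did not pass it. In comparison, the share past the 2-fold limit among the 16870 genes measured on both arrays was 1.39% on the lower side and 1.99% on the higher side. Shares of this size leave few or none of 9 genes past the limit. The log2 differences, IR-61 minus vehicle, lay between −0.40 for *Ocstamp* and 0.47 for *Dcstamp*, with a median of −0.09. All 9 lay inside the middle 95% of the measured genes, which ran from −0.81 to 0.93. The tenth gene, *Calcr*, was well above background with vehicle only.

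Values are the log2 signal of a probe minus the 75th percentile of its array, called scaled log2 signal below. A gene takes its brightest probe. The IR-61 array was brighter as a whole, by 0.49 on the log2 scale at the 75th percentile, and after scaling the median difference of all measured genes was 0.10. Directions of small differences therefore depend on the scaling, and without it all 9 measured genes were brighter with IR-61. As the only measurable error, an SD of the difference was derived from probes printed 10 times on each array. It covers noise within an array and not the spread between cultures. Of the 9 genes 3 lay within 1 such SD of 0, *Tnfrsf11a*, *Oscar* and *Mmp9*, and 2 lay more than 2 such SDs from 0, *Dcstamp* and *Acp5*. This SD is that of 1 spot per array, while the value of *Mmp9* is the mean of 10 spots on each. It is thus too wide for *Mmp9*, whose place in this count is not settled. Counted from the median of all genes instead, 4 lay more than 2 such SDs away, *Dcstamp* above it and *Ocstamp*, *Ctsk* and *Atp6v0d2* below it. *Mmp9* lay 0.84 such SDs below it, a number that its wide SD makes too small. Which genes are named thus depends on the zero chosen and on the SD used. The differences of all measured genes had an SD of 0.44, against at most 0.23 from spots for these 9 genes. The share of all genes past 2 such SDs is not given here, so neither count sets the members apart. In a culture measured as a whole, fewer cells with a transcript and less of it per cell cannot be told apart.

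**Figure D1:**
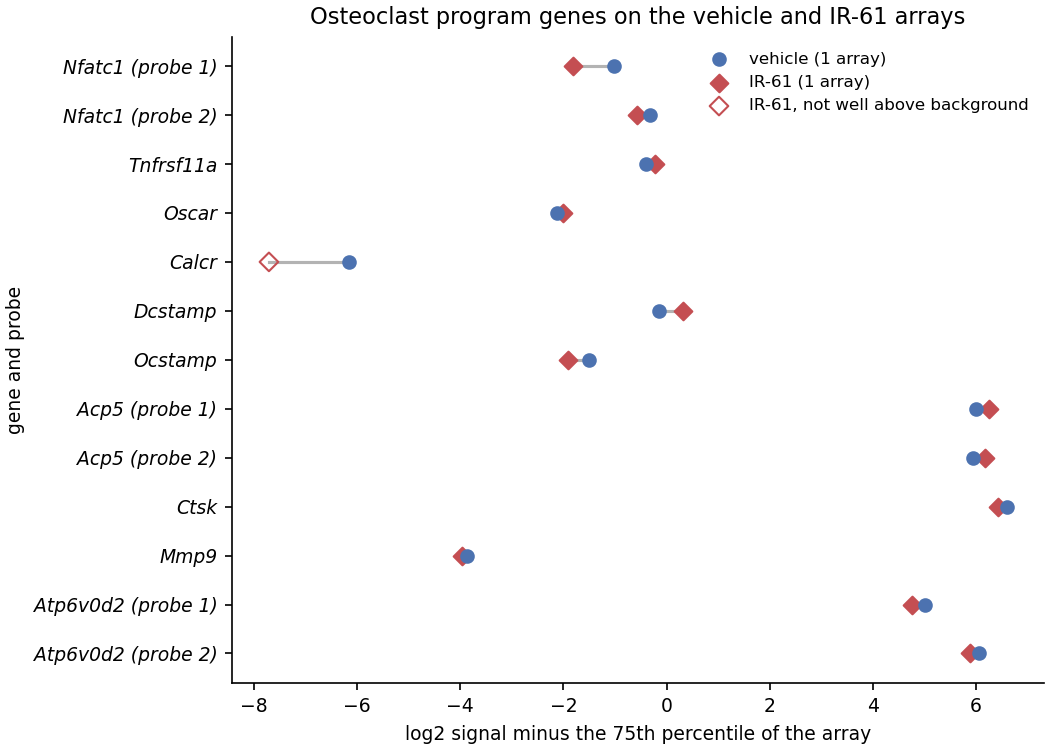
Scaled log2 signal (x axis) of each of the 13 probes (y axis) with vehicle, circles, and with IR-61, diamonds, 1 array each. The open diamond marks *Calcr* on the IR-61 array, not well above background. For the 12 probes measured on both arrays the symbols lie within 0.80 of each other, and positions of different probes are not comparable with each other.

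*Nfatc1*, the master transcription factor, was read by 2 probes that disagreed in size. The brighter probe had a signal of 1016 with vehicle and 1197 with IR-61. After scaling this was −0.31 and −0.57, a difference of −0.25, or 1.19-fold lower, with an SD from spots of 0.19. Without scaling the same probe was higher by 0.24, so its direction follows the scaling. The dimmer probe, designed on another transcript of the gene, had a signal of 625 with vehicle and 505 with IR-61. Its difference was −0.80, or 1.74-fold lower, with an SD of 0.23, and it was the only one of the 12 probes measured on both arrays that was dimmer with IR-61 before scaling, by 0.31. Of all measured genes 2.56% had a lower difference than this probe, and 18.2% a lower one than the brighter probe. The probes differed from each other by 0.54, where 0.30 is the SD expected from spots. Such a gap was not rare, since among 3492 genes with exactly 2 measured probes 28.0% had one at least as wide.

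Among the receptors, *Tnfrsf11a* encodes RANK itself. Its probe had a signal of 953 with vehicle and 1521 with IR-61, or −0.41 and −0.22 after scaling. The difference of 0.19 was as large as the SD of 0.19. *Oscar* encodes an immunoglobulin-like receptor that costimulates osteoclast formation through the adaptor FcRγ. Its signal was 290 with vehicle and 443 with IR-61, or −2.12 and −2.00 after scaling, a difference of 0.13 with an SD of 0.23. Neither receptor gene differed by more than the SD from spots. With normexp background correction the value of *Oscar* was −0.01 and that of *Tnfrsf11a* 0.39.

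*Calcr*, the receptor for calcitonin and a marker of mature osteoclasts, had a signal of 17.8 with vehicle, where the lowest probe well above background had 12.8. With IR-61 its signal was 8.48, and the lowest probe well above background on that array had 16.3. The gene can thus only be called at least 1.53-fold lower, a log2 bound of −0.62. Without scaling this bound shrank to −0.13. The probe lay near the limit of detection on both arrays.

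*Dcstamp* and *Ocstamp* encode multipass membrane proteins that precursors need to fuse into multinucleated cells, and they lay at opposite ends of the 9 genes. *Dcstamp* had a signal of 1144 with vehicle and 2216 with IR-61, or −0.14 and 0.32 after scaling. Its difference of 0.47, or 1.38-fold higher, was 4.92 times the SD from spots of 0.10, and 84.5% of the measured genes had a lower difference. That SD was read in bins of signal split at 10 on the log2 scale, and *Dcstamp* lay just above the split with vehicle. The brighter probe of *Nfatc1*, just below the split with vehicle, had an SD of 0.19, so the multiple depends on the bin. *Ocstamp* had a signal of 443 with vehicle and 472 with IR-61, or −1.51 and −1.91 after scaling. Its difference was −0.40, or 1.32-fold lower, with an SD of 0.23, and without scaling it was 0.09. The gap between the 2 genes, 0.86 with an SD from spots of 0.25, spans all 9 genes and does not depend on the level of an array. How wide gaps between other genes of the array are is not given here. The gap lay between 0.77 and 0.94 under 11 settings, and *Dcstamp* was the highest measured member under all 11. Those settings that only shift a whole array could change neither the gap nor the order. *Ocstamp* was the lowest under 10, the exception being the mean over probes, where *Nfatc1* at −0.52 was lower.

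**Figure D2:**
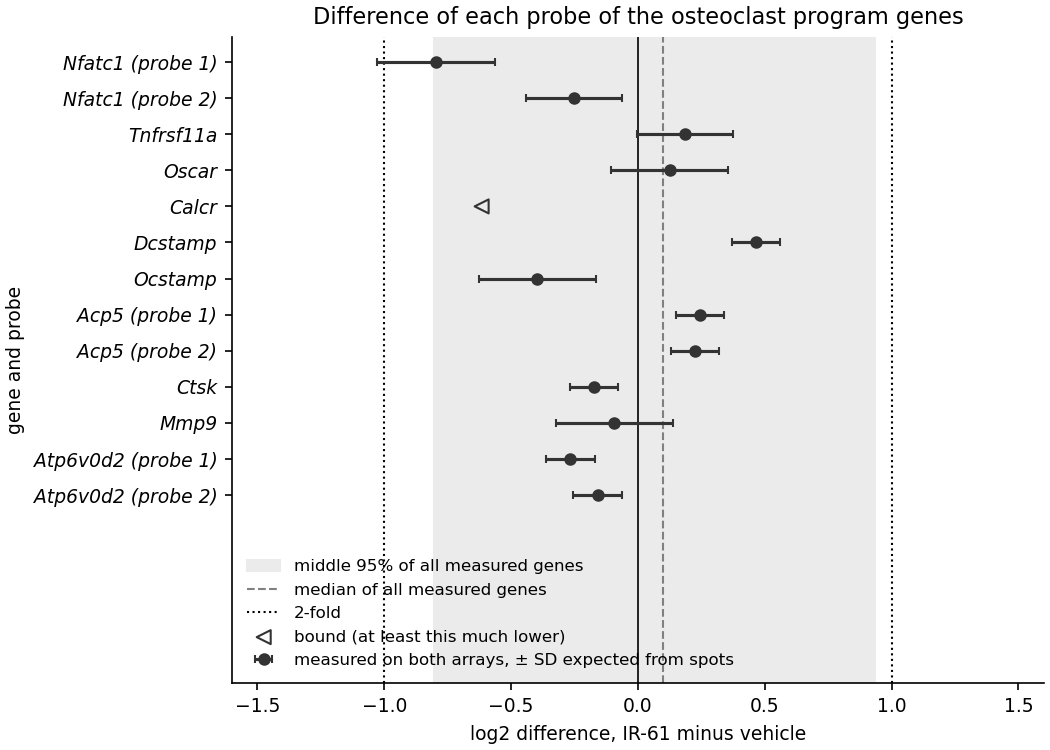
Log2 difference, IR-61 minus vehicle (x axis), of each probe (y axis), with bars for the SD that the noise between spots predicts and an open triangle for the bound of *Calcr*. The bars are for 1 spot per array, so that of *Mmp9* is too wide. All measured probes lie within the 2-fold lines, from −0.80 for the dimmer probe of *Nfatc1* to 0.47 for *Dcstamp*, around the gene median of 0.10.

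The 4 genes of bone resorption and acid secretion differed by at most 1.19-fold between the arrays, by their brightest probes after scaling. *Acp5* encodes tartrate-resistant acid phosphatase, the enzyme stained to identify osteoclasts. Its brighter probe had a signal of 81155 with vehicle and 135012 with IR-61, and the second probe 77967 and 127773. The scaled log2 signals of the brighter probe were 6.01 and 6.25. The differences were 0.25 and 0.22, each with an SD of 0.10, so both probes gave nearly the same value. This corresponds to 1.19-fold and 1.17-fold higher signals, and no spot was saturated.

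*Ctsk* encodes cathepsin K, the protease that digests bone collagen. Its signal was 122108 with vehicle and 152092 with IR-61, or 6.59 and 6.42 after scaling. The difference of −0.17 had an SD of 0.10, and without scaling it was 0.32. *Atp6v0d2* encodes a subunit of the proton pump that is abundant in osteoclasts and also takes part in fusion. Its brighter probe had 83551 and 104972, a difference of −0.16, and its dimmer probe 40811 and 47608, a difference of −0.27, or 0.33 and 0.22 without scaling. The probes of *Atp6v0d2* differed by 0.11, where an SD of 0.13 is expected. The distance between *Acp5* and *Ctsk*, 0.42 with an SD of 0.13, stayed between 0.35 and 0.44 under the 11 settings. Here too, the settings that only shift a whole array could not change it, and gaps between other genes of the array are not given.

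*Mmp9*, a gelatinase of migrating osteoclasts and activated macrophages, is the member whose probe was printed 10 times on each array. The 10 spots ran from 76.7 over a median of 88.5 to 92.5 with vehicle, and from 106.0 over a median of 112 to 123 with IR-61. Before scaling the ranges did not overlap, and every IR-61 spot was brighter. After scaling the mean ± SD over the 10 spots was −3.88 ± 0.10 for the vehicle array and −3.97 ± 0.07 for the IR-61 array, and the ranges overlapped, from −4.04 to −3.77 and from −4.06 to −3.85. The difference was −0.09, and 80.8% of the measured genes differed by at least as much in either direction.

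**Figure D3:**
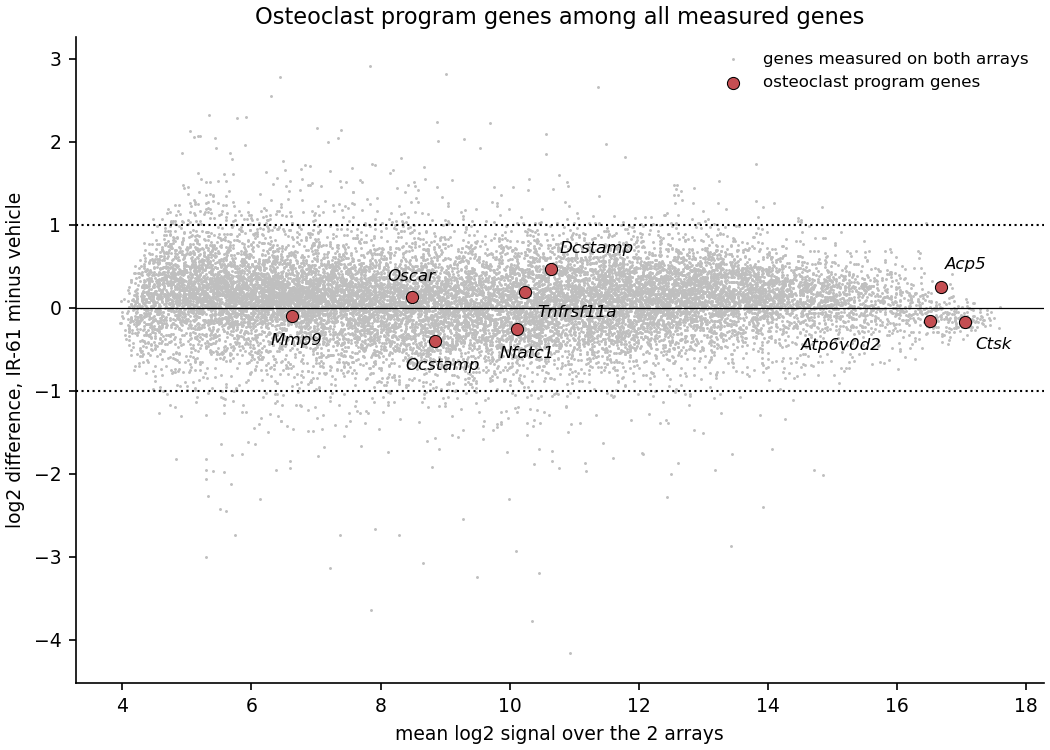
Log2 difference, IR-61 minus vehicle (y axis), against the mean log2 signal of the 2 arrays (x axis) for 16870 genes measured on both arrays, in grey, with the 9 measured osteoclast program genes in red. All 9 lie between the dotted 2-fold lines, while 234 genes lie at or below the lower line and 335 at or above the upper one.

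The cells were checked against marker lists. Of 9 macrophage markers 8 could be named and all 8 were well above background on both arrays, with signals from 1002 for *Spi1* to 95036 for *Csf1r*, the M-CSF receptor, with vehicle. *Adgre1*, which encodes F4/80, was 1.03 higher with IR-61 on the log2 scale and *Spi1* had a difference of −0.83. Of 8 osteoblast or stromal markers 7 were named and all 7 were above background, *Col1a1* at 27148 and *Col1a2* at 15029 with vehicle, while *Runx2*, *Sp7* and *Ibsp* had 22.7, 94.6 and 31.1. Before scaling, the summed signal of these 7 was 43380 with vehicle and 83322 with IR-61, and that of the 8 macrophage markers 200951 and 380343, on arrays that differed in overall brightness. After scaling the median difference was 0.24 for the stromal and 0.02 for the macrophage markers, against 0.10 over all genes, and *Col1a1* had 0.62. Their part in the values of the members was not tested. All 4 B cell markers, 3 of 4 T cell markers and the 4 named of 5 neutrophil markers were above background too. Their summed signals before scaling were 618 and 555 for B cells, 2063 and 2987 for T cells and 11938 and 20185 for neutrophils, with vehicle and IR-61. None of the defining markers was listed at 0, but a signal above 0 does not show that a transcript is present. *Cd3g*, above background on neither array, still had 3.26 with vehicle and 4.14 with IR-61.

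A wider set of 80 genes of osteoclast formation and function, none of them a member, was looked up in the same way. Of these 77 were measured on both arrays, and on the IR-61 array 5 were lower and 2 higher by at least 2-fold, or 6.49% and 2.60%. Over all genes these shares were 1.39% and 1.99%. The median difference of the 77 genes was −0.11, against 0.10 over all measured genes. Of the 7 genes past the limit 5 were transcription factors that promote osteoclast formation, and without that list 1 of the remaining 62 genes was lower and 1 was higher.

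Among 15 transcription factors listed as promoting the program, 4 were lower and 1 was higher by 2-fold or more, and the median was −0.23. *Fos*, the AP-1 subunit needed upstream of NFATc1, had a signal of 3731 with vehicle and 1427 with IR-61, a difference of −1.87. *Relb* and *Nfkb2*, the partners of the alternative NF-κB pathway that RANK activates, had differences of −1.81 and −1.44. Both probes of *Relb* gave −1.81. *Fosl2* had a difference of −1.05 with its brighter and −1.01 with its dimmer probe. *Nfatc2*, a relative of NFATc1, had 668 with vehicle and 1997 with IR-61, a difference of 1.09, and its dim second probe 0.60. *Jun* and *Mitf* had differences of 0.42 and 0.32, and *Spi1*, the gene of PU.1, of −0.83. *Fos*, *Relb* and *Nfkb2* also belong to the AP-1 and NF-κB genes of inflammation, and the list was written with earlier results of these arrays known. Under 11 settings *Fos* and *Relb* stayed past the limit, *Nfkb2* under 10, and *Fosl2* and *Nfatc2* under 9.

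The 6 factors reported here that restrain osteoclast formation ran from −0.81 for *Rbpj*, which mediates Notch signalling, to 0.53 for *Id1*, an inhibitor of helix-loop-helix factors, with a median of −0.31. With the mean over probes that median was −0.12. The dimmer probe of *Rbpj* gave −1.12. *Irf8* and *Bcl6*, both transcriptional regulators of immune cells, had differences of −0.12 and −0.53. *Id2*, a relative of *Id1* that is also known to restrain osteoclast formation, stands in the list of promoting factors and had a difference of 0.67. With *Id2* moved, a step chosen after seeing the data, the median of the restraining factors was −0.12 and that of the 14 remaining promoting factors −0.27, of which 4 were lower and 1 was higher as before.

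Among 15 signalling proteins, 1 was lower by 2-fold or more, *Lcp2*, the adaptor SLP-76, with signals of 257 and 153 and a difference of −1.24. It passed the limit under 10 of 11 settings, with −0.75 as the value nearest to 0. The highest value by the brightest probes was 0.62 for *Grb2*, whose dimmer probe gave 0.38. The dimmer probe of *Traf2* gave 0.88 and its brighter one −0.09, so the highest gene depends on the probe. *Traf6*, the adaptor that binds RANK, had a difference of −0.18. None of the 4 ligands and decoys passed the limit. *Tnfsf11*, the gene of RANKL, was dim, at 18.0 with vehicle and 27.0 with IR-61. By the brightest probes *Csf1*, the gene of M-CSF, had the lowest value of that list, 0.07, and *Tnfrsf11b*, the decoy receptor osteoprotegerin, the highest, 0.34. The dimmer probes of *Csf1* gave 0.73 and 0.67, above every other gene of the list, so its place there depends on the probe. Of 9 measured receptors and costimulatory proteins none passed it either, from −0.45 for *Fcer1g*, the adaptor that OSCAR uses, to 0.35 for *Sirpa*. *Csf1r* had a difference of 0.06 with its brightest probe and of −0.12 and −0.65 with the dimmer ones.

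Among 11 measured genes of acid secretion 1 passed the limit, *Slc9b2*, which encodes a sodium/proton exchanger. Its signal was 102 with vehicle and 414 with IR-61, a difference of 1.54, and it passed under all 11 settings. *Clcn7*, the chloride transporter of the resorption lacuna, had the lowest value, −0.71, and *Tcirg1*, the osteoclast a3 subunit of the pump, had −0.06. *Atp6v0d1*, the widely expressed relative of *Atp6v0d2*, is among the listed genes, but no probe was matched to it by accession, so it has no value here. Adhesion and fusion partners ran from −0.78 for *Itgb1* to 0.67 for *Gsn*, with −0.07 for *Itgb3*. Other matrix enzymes ran from −0.97 for *Mmp14* to 0.01 for *Ctsb* by their brightest probes, with a median of −0.39. The dimmer probe of *Mmp12* gave 0.45, against −0.72 for its brighter one, and with the mean over probes that median was −0.15. None of these 17 genes passed the limit. Without scaling the medians of all 8 lists were above 0, between 0.10 and 0.60, as was the median of all genes, 0.59.

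**Figure D4:**
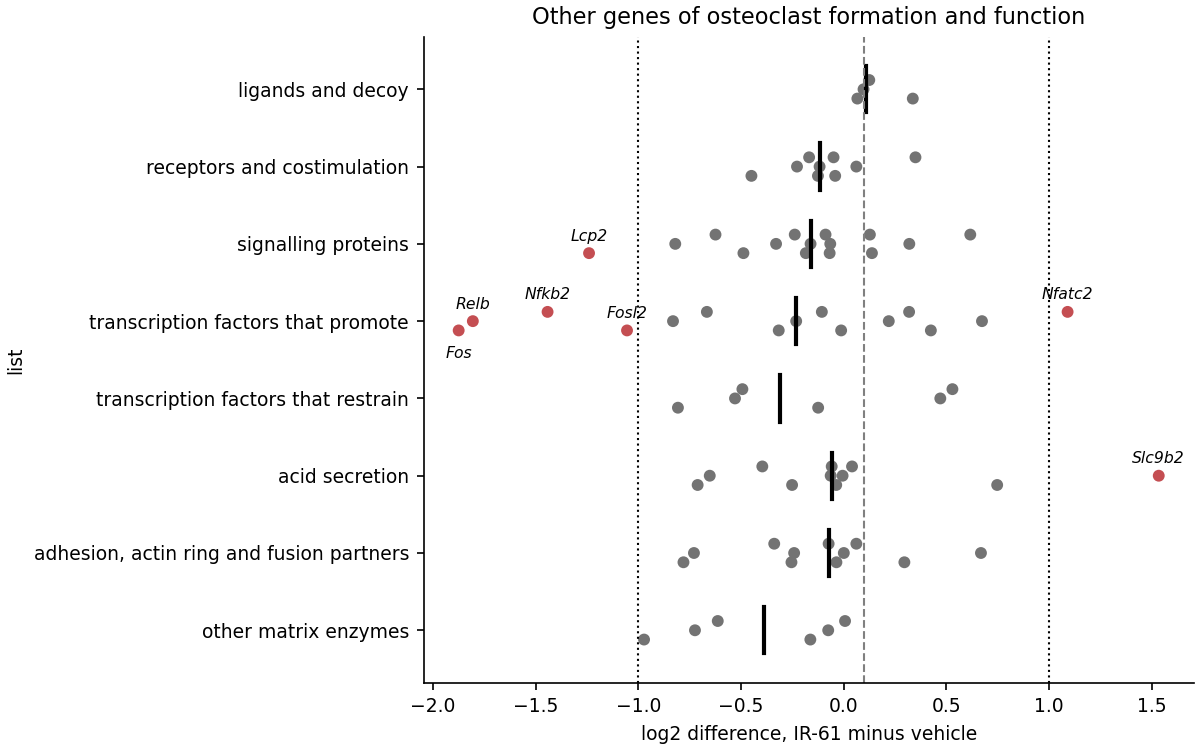
Log2 difference, IR-61 minus vehicle (x axis), of 77 measured genes in 8 lists (y axis), 1 point per gene, with a bar at the median of each list and a dashed line at the median of all measured genes, 0.10. The 7 red points past the dotted 2-fold lines are named, 5 of them transcription factors that promote osteoclast formation.

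The settings changed the signs of the members, since without scaling all 9 were above 0, but less their place among all genes. Relative to the median of all genes in the same setting, *Ocstamp*, *Nfatc1*, *Ctsk*, *Mmp9* and *Atp6v0d2* were below it and *Dcstamp*, *Acp5* and *Oscar* above it under all 11 settings, and *Tnfrsf11a* was above it under 10. Those settings that only shift a whole array could not change these places, so only the other settings bear on them. In these terms *Dcstamp* lay between 0.31 and 0.53, *Acp5* between 0.15 and 0.29, *Nfatc1* between −0.60 and −0.20 and *Ocstamp* between −0.50 and −0.41.

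**Figure D5:**
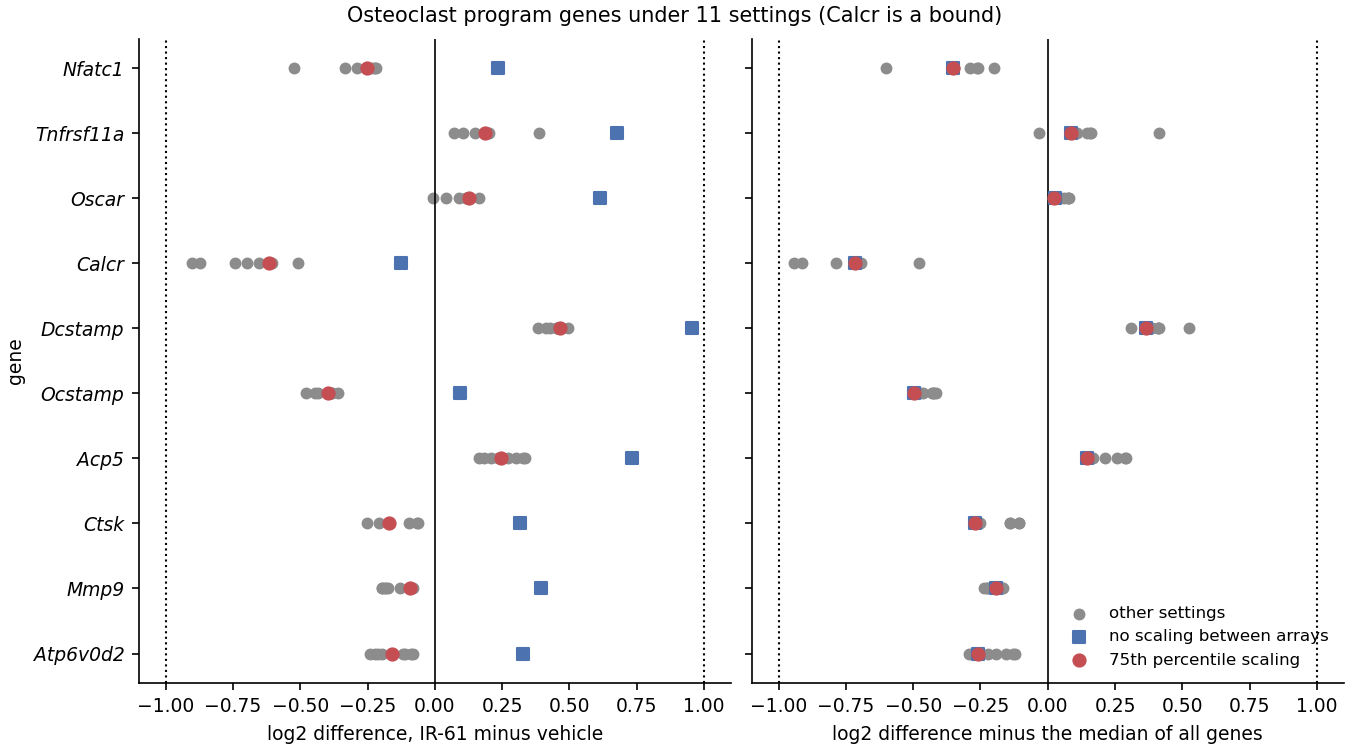
Log2 difference of each gene (y axis) under 11 settings, as IR-61 minus vehicle (left x axis) and after subtracting the median of all measured genes in the same setting (right x axis). Without scaling, blue squares, all 9 measured genes lie right of 0 in the left panel. In the right panel they fall on the red points of the 75th percentile scaling, as they must when only a whole array is shifted.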

How the data were processed

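Both RNA samples were labelled with Cy3 and read on separate Agilent mouse arrays. The authors deposited spot intensities, background-subtracted and detrended by Feature Extraction 11.0.1.1 per the file headers, with 0/1 flags (other columns), and a table of log2 values whose making is not described. Dose and time came from the study's legend and labels. Control and outlier-flagged spots were left out, log2 intensities of a probe's spots were averaged, and each array's 75th percentile was subtracted. A probe counted as above background where every spot used was. Of 39419 probes 27224 were named through RefSeq accessions (GRCm38.p6, names only, since the array design gives another build). For a probe detected on 1 array, the dim signal was raised to at least the lowest detected signal to give a bound. The SD of a difference came from probes printed 10 times, in bins of log2 signal split at 6 and 10, and is that of 1 spot per array. No spot was saturated, 77.5% and 81.2% of probes were above background, and the number of arrays limits the precision.

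Members and lists were chosen with earlier results of these data known. Of the listed genes 1 is not reported here and was left out of the counts of its list. The genes named are all members, the extremes of each list and genes past 2-fold; a few more were named after their values were seen. The motifs were chosen after the differences were known. The steps were tested on simulated data. Alternatives were other scalings, the deposited log2 values, normexp on median spot signals, the mean over probes, outlier spots kept, a position trend removed, and other filters and limits. Python 3.11.15, numpy 2.4.6, pandas 2.3.3, statsmodels 0.14.6, matplotlib 3.10.9, R 4.3.3 and limma 3.58.1 were used.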

Additional observations from a re-analysis of the deposited data

How the results depend on the processing

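No paired analysis was possible because the labels give only 1 replicate number, shared by 2 arrays. None of the measured members passed 2-fold under any scaling, with the deposited values, normexp, the mean over probes, outlier spots kept, the trend removed or a signal of at least 50, and none passed 1.5-fold or 3-fold after the 75th percentile scaling. With no filter on dim probes 1 was lower, *Calcr*, whose IR-61 signal is then used as it stands. Among the pathway genes 5 were lower and 2 higher, without scaling 2 and 7, and with normexp or the mean over probes 1 was higher. Over all genes 234 were lower and 335 higher. These counts became 72 and 2153 without scaling, 149 and 124 with normexp, 440 and 921 with no filter, 959 and 1652 at 1.5-fold, 64 and 50 at 3-fold, and 201 higher with a signal of at least 50. Of the genes past the limit 41.1% were lower, against 54.2% with scaling by the median, 52.0% with quantile normalization, 51.3% with the deposited values, 54.6% with normexp and 3.24% without scaling, where the whole array shifts up. Normexp was run after 4 IR-61 spots with a local background above their signal had been given the median background, a step chosen after seeing the data.

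Single values moved by more than the SD from spots in every member without scaling. Otherwise *Ctsk* moved to −0.06 with quantile normalization and with the deposited values, *Nfatc1* to −0.52 with the mean over its probes, and *Tnfrsf11a* to 0.39 with normexp. For *Mmp9*, a mean over 10 spots, that SD is too wide, and its value was −0.195 with normexp. The cause was not tested.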
